A study of Mus musculus with 56 samples.

Results

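Cell cycle and DNA replication genes were followed in the RNA-Seq counts of CD8 T cells specific for OVA:Kb (T_FGS_), the cells that recognize a model antigen carried by both a skin graft and the fetus. The genes were 40 of the 55359 in the table, chosen by symbol. They comprised 21 mitotic genes, 8 S-phase genes that made up an S-phase score (Mcm2 to Mcm7, Pcna and Tyms), 10 other replication and G1/S genes, and Stmn1, which was placed in neither class.

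The cells came from spleen and pooled lymph nodes of adult female C57BL/6 mice. Naive mice (3 samples) were neither grafted nor mated, and Sensitized mice (4 samples) had rejected a 2W-OVA.BALB/c skin graft and were not mated. N+P mice were naive females that had carried a semi-allogeneic pregnancy by 2W-OVA.BALB/c males, and S+P mice were Sensitized females with the same pregnancy, taken in the first days after delivery. Each was sorted into subsets by surface protein, giving N+P C1 (PD1-, 3 samples), N+P C5 (PD1+CD73+, 3 samples), S+P C4 (PD1-, 6 samples), S+P C5 (PD1+CD73+, 6 samples) and S+P C7 (PD1+CD73-, 5 samples). A sample was 1 mouse and subset with its technical libraries of 200 sorted cells summed, apart from S+P C7 replicate 1/2, described below. Sample totals ran from 15547934 to 54809406 counts.

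In a proliferating lymphocyte, E2F factors switch on the genes of DNA synthesis at the entry to S phase, among them the Mcm helicase subunits that are loaded onto replication origins, the sliding clamp Pcna and the nucleotide synthesis enzymes Tyms, Rrm1 and Rrm2. The mitotic genes follow in G2 and M, when the MuvB complex with B-Myb and FoxM1 acts at CHR promoter elements, often beside CCAAT boxes bound by NF-Y. Resting T cells keep both programs low, and cells that meet antigen switch them on.

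Promoters of members of each class are shown because the E2F and CHR letters in them differed in frequency between the S-phase and the mitotic genes. RefSeq promoters (build GRCm38.p6, 250 bases before to 50 after a gene's start) were matched by symbol for 33 of the 40 members, and Aurkb, Ccna2, Ccne2, Gins2, Mcm4, Stmn1 and Tpx2 had no entry. The printed promoters are those of the 2 mitotic and the 2 S-phase score genes with the highest mean level per kilobase among those holding their class's letters, each on the minus strand. Ccnb2 is at chr9:70421505-70421804, Top2a at chr11:99024140-99024439, Mcm6 at chr1:128359656-128359955 and Mcm3 at chr1:20820263-20820562. Capitals mark the CHR letters TTTGAA or TTTAAA and the letters CCAAT in the mitotic pair, and the E2F letters TTTCCCGC, TTTGGCGC, TTTGCCGC or TTTCGCGC in the S-phase pair, on either strand.
Ccnb2: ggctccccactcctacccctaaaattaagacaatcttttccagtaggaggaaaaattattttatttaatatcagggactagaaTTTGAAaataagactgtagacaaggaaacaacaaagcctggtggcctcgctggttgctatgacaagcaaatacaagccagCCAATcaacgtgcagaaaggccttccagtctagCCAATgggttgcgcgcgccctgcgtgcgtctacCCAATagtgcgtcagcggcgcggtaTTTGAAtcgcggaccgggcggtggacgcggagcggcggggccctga
Top2a: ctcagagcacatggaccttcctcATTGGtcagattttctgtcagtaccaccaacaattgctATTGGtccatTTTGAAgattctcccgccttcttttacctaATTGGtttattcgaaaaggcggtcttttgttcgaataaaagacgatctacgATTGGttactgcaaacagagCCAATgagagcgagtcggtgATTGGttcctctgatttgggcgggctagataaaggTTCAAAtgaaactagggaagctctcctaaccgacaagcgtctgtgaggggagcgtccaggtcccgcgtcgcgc
Mcm6: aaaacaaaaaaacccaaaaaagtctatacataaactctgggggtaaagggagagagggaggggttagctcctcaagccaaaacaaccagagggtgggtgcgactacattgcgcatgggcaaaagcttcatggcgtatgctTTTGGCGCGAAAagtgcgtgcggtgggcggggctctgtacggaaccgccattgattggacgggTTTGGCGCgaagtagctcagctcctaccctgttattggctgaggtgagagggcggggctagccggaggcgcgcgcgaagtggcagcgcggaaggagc
Mcm3: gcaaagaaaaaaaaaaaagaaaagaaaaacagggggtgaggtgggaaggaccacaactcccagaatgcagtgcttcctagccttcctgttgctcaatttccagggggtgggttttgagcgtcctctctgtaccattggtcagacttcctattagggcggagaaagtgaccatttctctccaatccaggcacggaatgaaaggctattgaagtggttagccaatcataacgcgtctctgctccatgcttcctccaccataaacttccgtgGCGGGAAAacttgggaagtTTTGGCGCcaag

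In Mcm6 a pair of E2F matches on opposite strands overlapped and is printed as 1 run of capitals. E2F letters were in 4 of 7 S-phase score promoters (57.1%; Mcm3, Mcm5, Mcm6 and Mcm7), in 1 of 18 mitotic promoters (5.56%; Cdk1) and in 2.605% of the 27025 genes with a promoter. CHR letters were in 16 of 18 mitotic promoters (88.9%) against 30.6% of all genes, and in 2 of 7 S-phase score promoters (28.6%). Over all 15 replication and G1/S promoters, those of the S-phase score included, E2F letters were in 6 (40%) and CHR letters in 7 (46.7%). CCAAT letters were in 16 of 18 mitotic and 6 of 7 S-phase score promoters, with 41.1% over all genes. Both CHR and CCAAT letters were in 15 of 18 mitotic promoters (83.3%) and in 12.2% of all genes. These are matches of letters in a fixed window and not measured binding.

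Several libraries stood apart. The counts of technical library A were identical, gene by gene, in Naive replicate 1 and S+P C4 replicate 1, and this library was left out of both groups. It was a library rich in the members, with a mitotic score of 4.63 and an S-phase score of 6.90. A pair of libraries, from S+P C7 replicate 1 and from replicate 2, was nearly identical and was averaged. The average was summed with the other library of replicate 1 into 1 sample, S+P C7 replicate 1/2, which thus joins 2 replicate numbers. The mitotic score was 1.56 and 1.59 in the pair and 0.62 in the other library. S+P C4 replicate 2 had 8002 genes detected, S+P C4 replicate 3 had 7436 and S+P C7 replicate 3 had 7879, while the other 27 samples had 12383 to 26805. The most were in S+P C7 replicates 4 (26805) and 6 (21247), followed by Naive replicate 2 (19796). Some samples rested on 1 library of 200 cells and the others on more. Those of 1 library were Naive replicate 1, S+P C4 replicates 1 to 3, S+P C5 replicates 2 and 3 and S+P C7 replicate 3. They had 7436 to 12829 genes detected, and every other sample had 14523 or more, so levels and detection mix samples of unlike library number.

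The CD8 T cell list (Cd3d, Cd3e, Cd3g, Cd8a, Cd8b1, Trac, Trbc1, Trbc2 and Lck) summed to 7725 to 16636 CPM, the counts scaled by TMM to a common library size, in the 30 samples. The library labelled S+P C7 replicate 3 also held 20082 CPM of the erythroid list of 6 genes, against 0 to 419 CPM in every other sample, and 10129 CPM of the plasma cell list of 3 genes, against 1.20 to 1475 CPM. Within these lists its Hba-a1 level was 10046 CPM and its Jchain level 1895 CPM. Of the plasma cell list it held 176271 counts of Ighm, 40571 of Jchain and 0 of Sdc1. It held 0.0467 CPM of Pdcd1, the transcript of the PD1 protein it was sorted for, against 166 to 578 CPM in the other S+P C7 samples. The B cell list summed to 0 to 62.8 CPM over all samples and the myeloid list to 0 to 332 CPM. The NK list (Ncr1 and Klrb1c) summed to 0 to 328 CPM and the CD4 list (Cd4 and Foxp3) to 0 to 4.45 CPM. S+P C7 replicate 3 held the highest NK sum (328 CPM) and 0 CPM of the B cell list. Because S+P C7 replicate 3 was also the highest sample for several members, main values of S+P C7 are given with and without it.

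S+P C7 had the highest group mean for 32 of the 40 members, and for 20 of the 21 mitotic genes. The exception among the mitotic genes was Kif23, a kinesin of cytokinesis, whose mean was highest in N+P C1. No member had its lowest mean in S+P C7 or S+P C5. The spread between mice was wide: across the 30 samples the coefficient of variation of a mitotic gene was 76.5% to 192% with a median of 152%, and that of an S-phase score gene 38.1% to 85.6% with a median of 56.4%. The map of the members by sample shows S-phase genes detected almost everywhere and mitotic genes present or absent sample by sample.

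**Figure D1:**
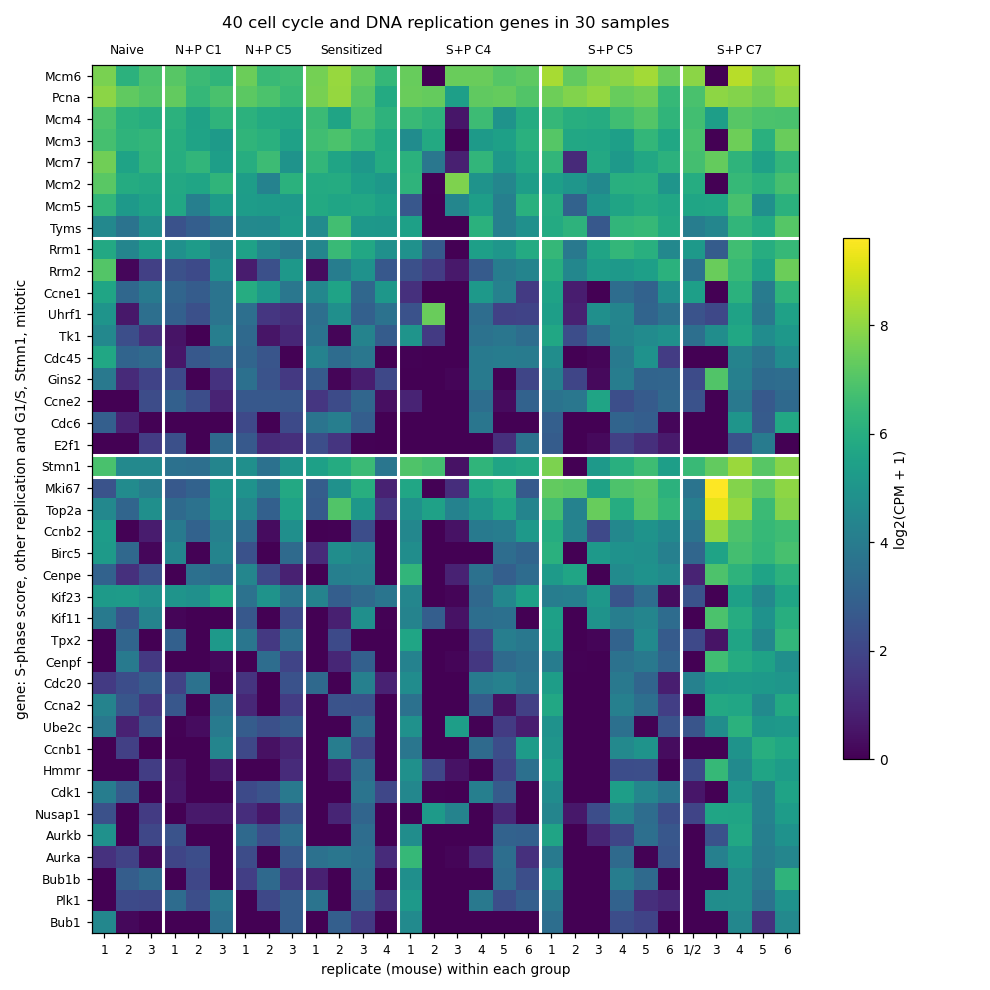
Level of each of the 40 members as log2(CPM + 1) (colour) in each of the 30 samples (columns, named by replicate within their group), with white lines between groups and between gene classes. The upper block of 8 S-phase score genes was near its full level in most samples, and the lower block of 21 mitotic genes was strongest in S+P C7 replicates 4, 5 and 6 and S+P C5 replicate 1.

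Detection differed between the classes. 5 of the 40 members had over 3 counts in all 30 samples, 1 of them mitotic (Top2a) and 3 in the S-phase score (Pcna, Mcm4 and Mcm7). A mitotic gene was at 3 counts or fewer in a median of 9 and at most 17 samples (Bub1, a kinase of the spindle checkpoint), and an S-phase score gene in at most 2. Between 13 and 40 members exceeded 3 counts in a sample. All 40 did so in 4 samples, namely S+P C5 replicates 1 and 4 and S+P C7 replicates 4 and 5.

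Levels per kilobase of exon were highest for Pcna and Mcm6, and those of the other leading S-phase genes were close to that of the mitotic gene Ccnb2. Pcna averaged 66.9 CPM per kb, Mcm6 31.4, Mcm4 14.5, Mcm3 11.3 and Mcm7 11.3 over the 30 samples. The leading mitotic genes were Ccnb2 at 14.0 CPM per kb, Top2a at 8.38, Mki67 at 8.23, Cdc20 at 5.94 and Birc5 at 5.22. The means of Ccnb2, Top2a and Mki67 were raised by S+P C7 replicate 3, at 263, 597 and 766 CPM. No other sample exceeded 119, 271 and 252 CPM. Part of the exon sequence of Pcna (20.8%) and Gins2 (67.3%) lies under a gene of the other strand. So does part of Aurka (32.7%), Ube2c (19.0%) and Ccna2 (17.5%), all in the mitotic score, and of Ccne2 (15.2%). For Mcm7 the share was 15.4%, microRNA genes of its own strand included, and other members had smaller shares. Whether reads were counted by strand is not given in the sources used here, so reads from overlapping genes could not be told apart there.

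The mitotic score, the mean of log2(CPM + 1) over the 21 mitotic genes, was 2.25 ± 0.40 in Naive (SD, n = 3), 1.88 ± 0.59 in N+P C1 (n = 3) and 2.23 ± 0.65 in N+P C5 (n = 3). It was 1.75 ± 1.22 in Sensitized (n = 4), 2.37 ± 1.44 in S+P C4 (n = 6), 3.02 ± 1.49 in S+P C5 (n = 6) and 4.47 ± 1.75 in S+P C7 (n = 5). The SD was above 1 in each of the groups from grafted mice and below 1 in each of those from ungrafted mice. Samples of 1 library were among those of Naive and of each S+P subset, and none was in N+P or Sensitized. Pooled over groups, the SD between samples of a group was 1.32 over all 30 and 0.82 over the 22 with 2 libraries. How far the number of libraries set the SD of a group was not tested.

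By sample, the mitotic score was 2.69, 2.13 and 1.93 in Naive replicates 1 to 3. It was 1.71, 1.39 and 2.54 in N+P C1 and 2.27, 1.56 and 2.86 in N+P C5. Sensitized replicates 1 to 4 scored 1.07, 2.03, 3.34 and 0.56. S+P C4 ran from 0.75 through a median of 2.47 to 4.59, and S+P C5 from 1.25 through 3.09 to 5.11. S+P C7 replicates 4, 5 and 6 scored 5.75, 4.93 and 5.76, replicate 3 scored 4.40, and replicate 1/2 scored 1.505. 4 of the 5 S+P C7 samples were therefore above every Sensitized sample, while replicate 1/2 lay inside the Sensitized range. Without S+P C7 replicate 3 the group stood at 4.48 ± 2.02 (n = 4). The highest scores, in S+P C7 replicates 4 and 6, were in the samples with the most genes detected, and a link between these was not tested.

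The S-phase score, the same mean over Mcm2 to Mcm7, Pcna and Tyms, averaged 6.23 ± 0.56 (SD) in Naive, with 5.61 ± 0.23 in N+P C1 and with 5.83 ± 0.16 in N+P C5. It was 6.21 ± 0.36 in Sensitized. Among the S+P subsets it was 4.92 ± 1.44 in C4, 6.11 ± 0.55 in C5 and 6.14 ± 1.34 in C7, with the same n as above. The groups overlapped: Sensitized samples ran from 5.73 to 6.57, S+P C5 from 5.28 to 6.68 and S+P C7 from 3.84 to 7.10. The 3 lowest scores of all samples, 2.91, 3.30 and 3.84, belonged to the 3 samples with under 9000 genes detected. Without them S+P C4 stood at 5.83 ± 0.37 (n = 4) and S+P C7 at 6.71 ± 0.44 (n = 4).

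S+P C7 exceeded Sensitized by 2.72 in the mitotic score and differed from it by -0.07 in the S-phase score. Without S+P C7 replicate 3 these differences were 2.73 and 0.51. S+P C7 exceeded S+P C5 by 1.45 in the mitotic and 0.03 in the S-phase score, and by 1.47 and 0.61 without that replicate. In bulk samples a smaller share of cycling cells and less RNA of these genes per cell cannot be told apart.

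**Figure D2:**
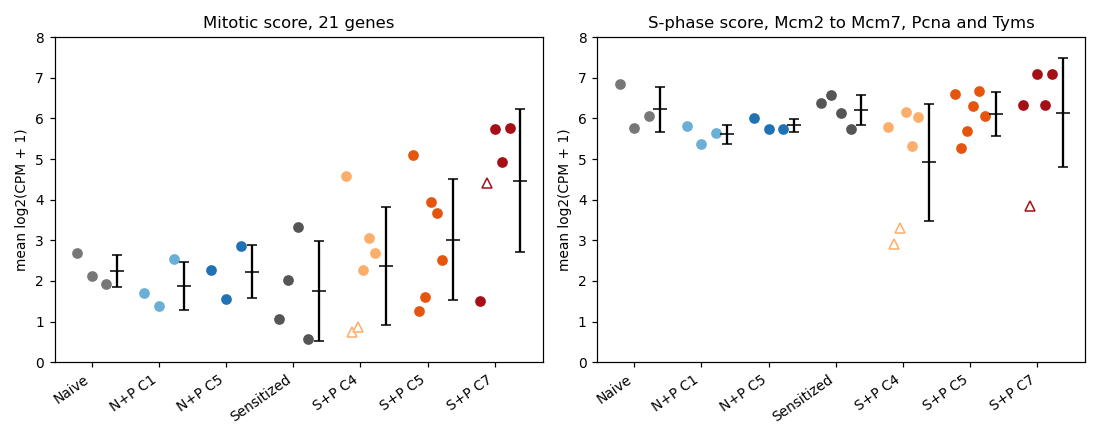
Mitotic score (left) and S-phase score (right), each a mean of log2(CPM + 1), for every sample by group. Filled circles are mice, open triangles are the 3 samples with under 9000 genes detected, and black bars are the mean ± SD of all samples of a group. Mitotic scores of the grafted groups spread from 0.56 to 5.76, and S-phase scores other than the 3 triangles stayed between 5.28 and 7.10.

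Mki67, the proliferation antigen Ki67 (GRCm39 chr7:135291513-135318299, minus strand), was at 4.49, 23.9 and 16.02 CPM in Naive replicates 1 to 3, at 5.48, 7.14 and 30.01 CPM in N+P C1 and at 28.5, 14.6 and 53.9 CPM in N+P C5. It was at 6.199, 27.7, 64.7 and 0.909 CPM in Sensitized replicates 1 to 4. In S+P C4 it ran from 0.0521 through a median of 27.6 to 67.6 CPM, and in S+P C5 from 44.7 through a median of 128 to 156 CPM. S+P C7 replicates 1/2, 3, 4, 5 and 6 held 11.8, 766, 223, 149 and 252 CPM. Every S+P C5 sample except replicate 3 was above all Sensitized and S+P C4 samples, and so were the S+P C7 samples other than replicate 1/2. Mean levels of Mki67 were 280.4 ± 287 CPM in S+P C7 (SD, n = 5), or 159 ± 107 CPM without replicate 3 (n = 4), against 112 ± 44.3 in S+P C5 (n = 6) and 24.9 ± 28.96 in Sensitized (n = 4).

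Top2a, the topoisomerase that untangles sister chromatids (GRCm39 chr11:98883769-98915062, minus strand), was at 21.2, 7.72 and 26.4 CPM in Naive, at 9.01, 11.4 and 28.1 CPM in N+P C1 and at 20.9, 6.75 and 44.04 CPM in N+P C5. Sensitized samples held 5.52, 127, 32.5 and 1.87 CPM. S+P C4 ran from 18.3 through a median of 29.5 to 48.99 CPM and S+P C5 from 18.3 through a median of 94.2 to 165 CPM. S+P C7 replicates 1/2, 3, 4, 5 and 6 held 16.4, 597, 271, 92.3 and 222 CPM. The S+P C7 and Sensitized ranges overlapped, since Sensitized replicate 2 exceeded S+P C7 replicates 1/2 and 5. The S+P C7 mean was 239.9 ± 224 CPM, or 150.5 ± 117 CPM without replicate 3 (n = 4).

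Top2a was the member that passed the test for any difference among the 7 groups (edgeR's quasi-likelihood F-test, adjusted p = 0.0579, threshold 0.1). Of all 19657 genes tested, 1.84% passed. The next member was Mki67 with adjusted p = 0.108. At an unadjusted p under 0.05 the test gave 5 members (Ccnb2, Kif11, Mki67, Rrm2 and Top2a), with 20.6% of all genes at that level. DESeq2 called 2 members, Mki67 and Top2a, with 2.19% of all genes called. The call of Top2a was lost without S+P C7 replicate 3 (edgeR adjusted p = 0.149), replicate 4 (0.116) or replicate 6 (0.107), without the 3 samples under 9000 genes (0.126), with all 56 libraries kept (0.125), and when replicate numbers entered as a block (0.303). The number marks the same mouse between the subsets of N+P or of S+P mice and unrelated mice elsewhere.

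Ccnb2, a cyclin that activates Cdk1 for mitosis (GRCm39 chr9:70314966-70328874, minus strand), was at 0, 0.05002, 3.82 and 0 CPM in Sensitized replicates 1 to 4, and 3 of these samples had 3 counts or fewer. S+P C7 held 11.6, 263, 119, 84.3 and 96.8 CPM in replicates 1/2, 3, 4, 5 and 6, so these groups did not overlap. S+P C5 ran from 3.36 through a median of 21.8 to 60.7 CPM and S+P C4 from 0 through a median of 15.02 to 35.3 CPM. Single samples were also low elsewhere: Naive held 38.7, 0.0331 and 0.6801 CPM, N+P C5 9.57, 0.263 and 26.5 CPM and N+P C1 14.3, 7.18 and 17.1 CPM.

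Cdc20, which activates the anaphase-promoting complex, was at 2.099, 3.81 and 5.71 CPM in Naive, at 2.68, 11.2 and 0.0287 CPM in N+P C1 and at 1.74, 0 and 4.31 CPM in N+P C5. Sensitized held 8.82, 0, 17.3 and 0.883 CPM and S+P C7 held 17.8, 35.97, 37.2, 34.3 and 32.1 CPM, again without overlap, the closest pair being 17.3 and 17.8 CPM. S+P C4 ran from 0 through a median of 13.6 to 24.6 CPM and S+P C5 from 0 through a median of 4.22 to 39.2 CPM, so each held samples with none.

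Birc5, the survivin subunit of the chromosomal passenger complex, was at 8.03, 45.9, 104, 80.6 and 111 CPM in S+P C7 and at 1.22, 25.4, 19.9 and 0 CPM in Sensitized. It ran from 0 through a median of 3.82 to 24.99 CPM in S+P C4 and from 0 through a median of 28.1 to 67.4 CPM in S+P C5. Birc5 was at 36.1, 8.45 and 0.113 CPM in Naive, at 19.8, 0.0348 and 19.2 CPM in N+P C1 and at 4.37, 0 and 8.97 CPM in N+P C5. All S+P C7 samples except replicate 1/2 were above every sample of the ungrafted groups and of Sensitized.

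Pcna, the sliding clamp of DNA polymerases (GRCm39 chr2:132091082-132095234, minus strand), was at 246, 153 and 126 CPM in Naive, at 157, 82.9 and 115 CPM in N+P C1 and at 143, 117 and 88.4 CPM in N+P C5. Sensitized held 199, 270.5, 135 and 57.7 CPM. S+P C4 ran from 41.9 through a median of 157 to 169 CPM, S+P C5 from 84.3 through a median of 181 to 263 CPM and S+P C7 from 113 through a median of 223 to 258 CPM. All group ranges overlapped with that of Sensitized, as the plot of 4 leading members shows. The group means of Pcna differed by 1.76-fold at most, and those of Mki67 by 19.7-fold, or 11.2-fold without S+P C7 replicate 3.

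**Figure D3:**
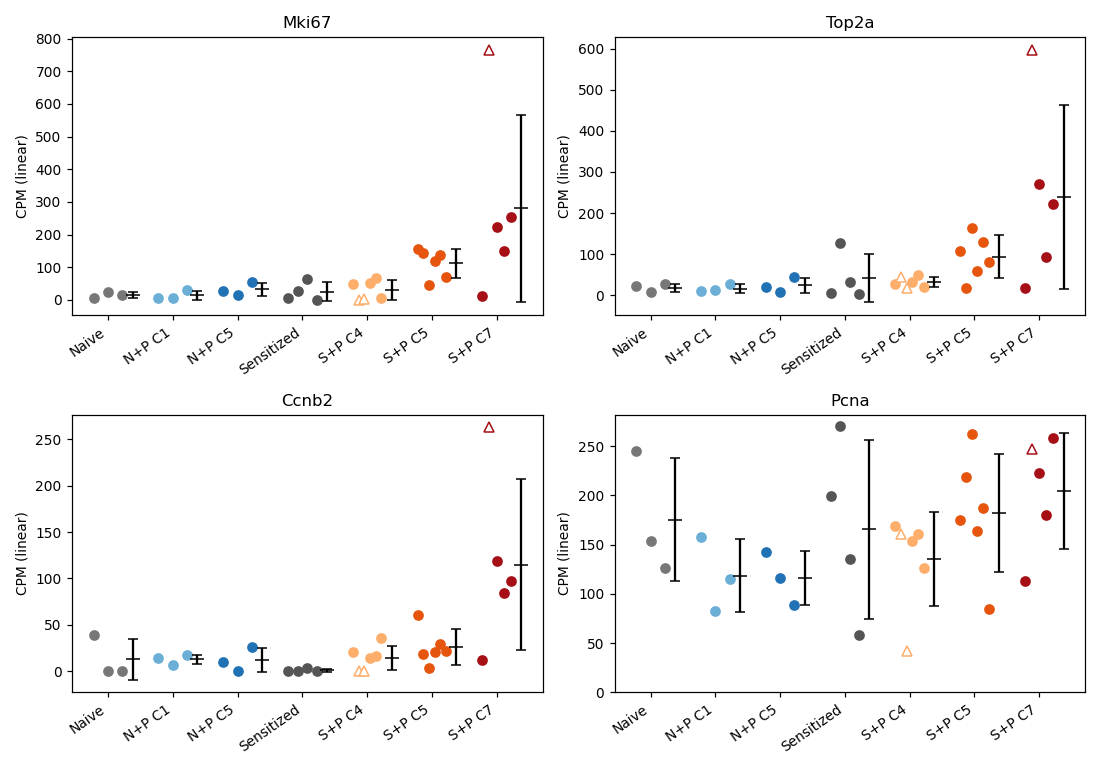
Levels of Mki67, Top2a, Ccnb2 and Pcna in CPM (linear axes) in every sample by group. Filled circles are mice, open triangles the 3 samples with under 9000 genes detected, and black bars the mean ± SD of a group. S+P C7 replicate 3 is the highest triangle for Mki67 (766 CPM), Top2a (597 CPM) and Ccnb2 (263 CPM), and Pcna ran from 41.9 to 270 CPM with every group overlapping the others.

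Mcm2 to Mcm7 form the ring of the replicative helicase, and the 4 most abundant of them were present in nearly every sample. Mcm6 was at 204, 71.7 and 116 CPM in Naive, 138, 91.8 and 76.9 CPM in N+P C1, 172, 90.9 and 97.5 CPM in N+P C5 and 194, 276, 159.6 and 82.7 CPM in Sensitized. It ran from 157 through a median of 229.9 to 324 CPM in S+P C5 and from 0 through a median of 156 to 169.5 CPM in S+P C4. S+P C7 held 244, 0, 382, 222 and 296 CPM, the 0 being replicate 3, and S+P C4 replicate 2 was also at 0. Both are samples with under 9000 genes detected.

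Mcm3 was at 107, 75.4 and 80.8 CPM in Naive and at 64.3, 46.3 and 36.9 CPM in N+P C1, without overlap. It was at 76.3, 66.6 and 44.6 CPM in N+P C5, at 99.96, 116, 83.6 and 55.3 CPM in Sensitized and at 113, 0, 179, 67.5 and 171 CPM in S+P C7, where replicate 3 again held none. It ran from 0 through a median of 39.3 to 66.8 CPM in S+P C4 and from 41.7 through a median of 52.5 to 135 CPM in S+P C5. The S+P samples of Mcm3 reached both above and below the Naive range.

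Mcm4 was at 120.3, 68.8 and 61.6 CPM in Naive, 71.2, 45.8 and 74.1 CPM in N+P C1, 70.97, 57.04 and 54.2 CPM in N+P C5 and 91.7, 47.2, 114 and 73.3 CPM in Sensitized. It ran from 0.496 through a median of 66.4 to 94.01 CPM in S+P C4, from 60.7 through a median of 79.3 to 131 CPM in S+P C5 and from 40.2 through a median of 113 to 136 CPM in S+P C7. Every group range of Mcm4 overlapped with that of Sensitized.

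Mcm7 was at 185, 46.9 and 76.1 CPM in Naive, 62.5, 78.3 and 40.8 CPM in N+P C1, 61.6, 93.5 and 29.4 CPM in N+P C5 and 80.7, 48.2, 34.1 and 58.5 CPM in Sensitized. It ran from 0.794 through a median of 44.1 to 79.00 CPM in S+P C4, from 1.19 through a median of 54.1 to 78.05 CPM in S+P C5 and from 44.3 through a median of 78.5 to 158 CPM in S+P C7. Its highest group mean was in Naive, where replicate 1 alone exceeded 100 CPM.

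Tyms, which makes thymidylate for DNA, had the widest spread of the S-phase score genes between group means, 8.73-fold. It was at 21.1, 11.7 and 25.96 CPM in Naive, at 4.37, 6.24 and 10.6 CPM in N+P C1 and at 22.1, 22.4 and 37.6 CPM in N+P C5, and the N+P C1 samples lay below both other groups. Sensitized held 23.5, 104, 33.9 and 32.7 CPM and S+P C7 15.7, 20.5, 78.9, 58.2 and 135 CPM. It ran from 0 through a median of 22.1 to 69.00 CPM in S+P C4 and from 5.24 through a median of 65.2 to 86.01 CPM in S+P C5.

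Among the other replication and G1/S genes some high group means came from 1 sample. Gins2, a subunit of the GINS complex of the replicative helicase, reached 127 CPM in S+P C7 replicate 3 and at most 17.3 CPM in any other sample. Uhrf1, which guides maintenance methylation of new DNA, reached 169 CPM in S+P C4 replicate 2 and at most 45.1 CPM elsewhere. The highest samples of Tk1, a thymidine kinase, were instead close, at 51.9 and 51.3 CPM. The 16 mitotic genes below the leading 5 per kilobase, among them the kinases Aurka, Aurkb and Plk1, the cyclins Ccna2 and Ccnb1 and the kinetochore proteins Cenpe and Cenpf, averaged 0.716 CPM per kb (Cenpf) to 3.503 CPM per kb (Ube2c).

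Each pairwise comparison was fitted over all 19657 genes, and a gene was called at an adjusted p under 0.1 with an absolute log2 fold change above 0.9. edgeR called none of the 40 members in any of the 11 comparisons or in the interaction, so the fold changes below describe these samples and did not pass the test. Comparisons with the same control group share its samples, and their values are set side by side only.

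S+P C7 vs. Sensitized asked how the PD1+CD73- subset after pregnancy compared with unmated Sensitized cells. All 40 members had a fitted level above Sensitized, with a median log2 fold change of 1.97 against 0 over all genes tested. The median was 2.97 over the 21 mitotic genes and 0.33 over the 8 S-phase score genes. Without the 3 samples under 9000 genes all 40 were still higher, with a median of 1.84 and a mitotic median of 2.70. edgeR called 0 members and 0.0305% of all genes. At an unadjusted p under 0.05 there were 4 members (10.2% of all genes), a share near that of all genes. DESeq2 called 3 members, Ccnb2, Mki67 and Top2a (3.79% of all genes). 2 members, Ccnb2 and Cdc20, had samples that did not overlap between the groups (2.15% of all genes).

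The fitted log2 fold change in S+P C7 vs. Sensitized was 3.49 ± 1.24 (SE) for Mki67 (adjusted p = 0.473), 2.53 ± 0.93 for Top2a (adjusted p = 0.473) and 2.98 ± 1.37 for Rrm2 (adjusted p = 0.473). It was 6.88 ± 2.07 for Ccnb2 (adjusted p = 0.473), a value that rests on the near absence of the transcript in 3 of 4 Sensitized samples. Without S+P C7 replicate 3 it was 2.67 ± 1.21 for Mki67 (edgeR adjusted p = 0.499), 1.87 ± 0.91 for Top2a (0.514) and 2.68 ± 1.39 for Rrm2 (0.553). Among the S-phase score genes it was, with all samples, 0.30 ± 0.44 for Pcna and 0.36 ± 1.04 for Mcm6.

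S+P C7 vs. S+P C5 compared the CD73- with the CD73+ cells of the PD1+ compartment after pregnancy. Of the 40 members 37 were higher in S+P C7, among them all 21 mitotic genes, with a median log2 fold change of 1.23 over the members, 1.43 over the mitotic genes and 0.38 over the S-phase score genes, against 0.02 over all genes. Without the 3 samples under 9000 genes 39 were higher, with a median of 1.01. edgeR called 0 members and 0.0% of all genes, 0 members had an unadjusted p under 0.05 (12.7% of all genes) and DESeq2 called 0 members (2.8% of all genes). The fitted difference was 1.32 ± 0.99 for Mki67 (adjusted p = 0.860) and 1.36 ± 0.78 for Top2a (adjusted p = 0.575). With S+P C7 replicate 3 left out it was 0.51 ± 1.03 for Mki67 and 0.69 ± 0.80 for Top2a (edgeR adjusted p = 1 for each). The samples of S+P C7 and S+P C5 overlapped for every member, as they did for all but 0.397% of all genes.

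S+P C7 vs. S+P C4 set the PD1+CD73- beside the PD1- cells of the same mice. 39 of the 40 members were higher in S+P C7, with a median log2 fold change of 1.44 against 0.23 over all genes. Without the 3 samples under 9000 genes 39 were still higher, with a median of 1.15. edgeR called 0 members (0.00509% of all genes) and 5 had an unadjusted p under 0.05 (15.9% of all genes), namely Ccnb2, Gins2, Mki67, Rrm2 and Top2a. DESeq2 called 3, Mki67, Rrm2 and Top2a (4.59% of all genes). The fitted difference was 2.93 ± 0.81 for Top2a, 3.25 ± 1.04 for Mki67 and 3.63 ± 1.20 for Rrm2 (adjusted p = 0.244 for each). The difference without S+P C7 replicate 3 was 2.26 ± 0.80 for Top2a, 2.41 ± 1.04 for Mki67 and 3.31 ± 1.22 for Rrm2. Gins2 then moved from 3.48 ± 1.59 to 1.74 ± 1.58 (unadjusted edgeR p = 0.279). Ccnb2 moved from 2.99 ± 1.45 to 2.41 ± 1.49 (unadjusted edgeR p = 0.115). Mcm3 went the other way, from 1.49 ± 0.92 to 1.81 ± 0.70 (unadjusted edgeR p = 0.0154). Rrm2, the regulated subunit of ribonucleotide reductase, averaged 97.96 ± 72.97 CPM in S+P C7 (SD, n = 5), 79.9 ± 70.2 CPM without replicate 3 (n = 4), and 7.89 ± 7.57 CPM in S+P C4 (n = 6).

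**Figure D4:**
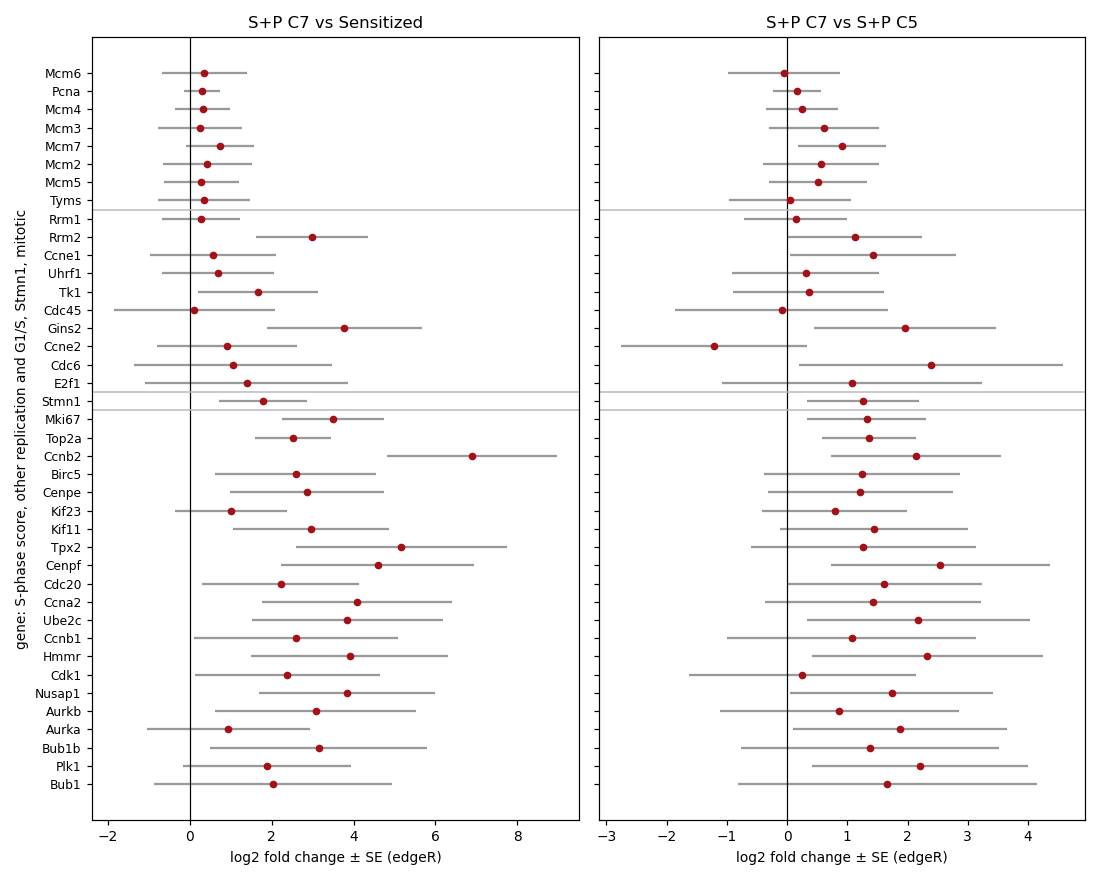
Fitted log2 fold change ± SE (edgeR) of each of the 40 members in S+P C7 vs. Sensitized (left) and S+P C7 vs. S+P C5 (right), with grey lines between the S-phase score genes, the other replication and G1/S genes, Stmn1 and the mitotic genes. In the left panel all 40 points lie above 0, the S-phase score genes near it (median 0.33) and the mitotic genes farther out (median 2.97), and none passed the test.

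S+P C5 vs. Sensitized and S+P C4 vs. Sensitized set the other subsets after pregnancy beside unmated memory cells. In S+P C5, 32 of 40 members were higher with a median log2 fold change of 0.89 (mitotic 1.65, S-phase score -0.03) against -0.01 over all genes. edgeR called 0 members (0.0712% of all genes), 1 had an unadjusted p under 0.05 (Ccnb2; 13.0% of all genes) and DESeq2 called 1 (Ccnb2; 4.98% of all genes). In S+P C4, 25 of 40 were higher with a median of 0.39 (mitotic 1.00, S-phase score -0.48) against -0.14 over all genes. edgeR called 0 members (0.00509% of all genes), 1 had an unadjusted p under 0.05 (Ccnb2; 12.7% of all genes) and DESeq2 called 1 (Ccnb2; 4.64% of all genes).

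In S+P C5 vs. S+P C4, 30 of 40 members were higher in S+P C5 with a median of 0.62, and 26 of 40 with a median of 0.22 without the 3 samples under 9000 genes, where the mitotic median was -0.08 in place of 0.39. edgeR called 0 members (0.0305% of all genes), 2 had an unadjusted p under 0.05 (Rrm2 and Top2a; 13.3% of all genes) and DESeq2 called 0 (4.9% of all genes). Rrm2 did not overlap between these groups (0.687% of all genes), with 20.5 to 69.2 CPM in S+P C5 and 0.596 to 18.95 CPM in S+P C4.

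In N+P C1 vs. Naive, the PD1- cells after pregnancy beside cells of unmated mice, 31 of 40 were lower, with a median log2 fold change of -0.63 against 0 over all genes, and all 8 S-phase score genes were among them. edgeR called 0 members (0.0% of all genes), 3 had an unadjusted p under 0.05 (Cdc6, Cenpf and Kif11; 3.23% of all genes) and DESeq2 called 2 lower in N+P C1 (Cdc6 and Kif11; 3.79% of all genes). The median over the mitotic genes was -0.20, and 0.01 under scaling by library size alone. 7 members did not overlap between these groups of 3 samples (Cdc45, Cdc6, Kif11, Mcm3, Plk1, Stmn1 and Tyms; 7.3% of all genes), 6 of them lower in N+P C1. Kif11, the kinesin that separates spindle poles, was at 13.95, 4.64 and 18.5 CPM in Naive and at 0.0904, 0 and 0 CPM in N+P C1. Cdc6, a loader of the Mcm helicase, was at 6.54, 0.895 and 0.0378 CPM in Naive and at 0 in all 3 N+P C1 samples, so no fold is given.

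In N+P C5 vs. Naive 28 of 40 members were lower with a median of -0.41, and edgeR called 0 members (0.0407% of all genes). There were 0 at an unadjusted p under 0.05 (5.33% of all genes), DESeq2 called 0 (5.08% of all genes), and Ccne2 alone did not overlap (12.9% of all genes). In N+P C5 vs. N+P C1 23 of 40 were higher with a median of 0.09, and edgeR called 0 members (0.00509% of all genes). 3 had an unadjusted p under 0.05 (Cdc6, Cenpf and Kif11; 4.31% of all genes), DESeq2 called 2 (Cdc6 and Kif11; 4.23% of all genes) and 3 did not overlap (Ccne1, Cdk1 and Tyms; 10.8% of all genes).

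Sensitized vs. Naive compared memory with naive cells outside pregnancy, and 19 of 40 members were higher and 21 lower with a median log2 fold change of -0.03, which was 0.09 under scaling by library size alone. edgeR called 0 members (0.153% of all genes), 0 had an unadjusted p under 0.05 (7.82% of all genes) and DESeq2 called 0 (5.48% of all genes). Kif23 did not overlap between these groups (7.59% of all genes). When S+P C5 was set against N+P C5, the PD1+CD73+ subset after pregnancy with and without a prior graft, 36 of 40 were higher in S+P C5 with a median of 1.01 and the mitotic genes at 1.16. edgeR called 0 members (0.0% of all genes), 0 had an unadjusted p under 0.05 (5.88% of all genes) and DESeq2 called 0 (3.85% of all genes).

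The interaction asked whether the difference of S+P C5 from Sensitized was unlike that of N+P C5 from Naive. The labels give the PD1+CD73+ gate for C5 and none for Naive or Sensitized, so pregnancy and gate cannot be told apart. The interaction was positive for 34 of the 40 members, with a median of 1.35 on the log2 scale against -0.06 over all genes. edgeR called 0 members (0.0254% of all genes), 0 had an unadjusted p under 0.05 (6.42% of all genes) and DESeq2 called 0 (4.18% of all genes).

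Libraries prepared from 1 mouse and 1 subset were then compared with each other. In 22 samples with 2 separate libraries, each of 200 cells, the mitotic score differed between the libraries by 0.08 to 2.96 with a median of 1.11, and the S-phase score by 0.04 to 2.57 with a median of 0.48. The SD between technical libraries, from single libraries scaled by library total, was 0.86 for the mitotic and 0.66 for the S-phase score. Over the same samples the SD between mice of a group was 0.82 and 0.33, from the 2 libraries summed and scaled by TMM. Summing averages out part of the spread between libraries, so these SDs are not like measures. Between single libraries of a group, the repeated ones left out, the SD was 1.24 for the mitotic and 0.90 for the S-phase score. Over all 30 samples the SD between mice was 1.32 for the mitotic and 0.94 for the S-phase score.

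The largest gap was in N+P C5 replicate 3, where library A had a mitotic score of 0.86 and library B 3.81. In S+P C7 replicates 4 and 5 the libraries differed by 0.11 each. A mitotic gene was at 3 counts or fewer in one library and at 100 or more in the other in 19.3% of the 462 gene and sample pairs, an S-phase score gene in 2.84% of 176, and any tested gene in 5.21% of 432454. Taken only where at least 1 library held 100 counts or more, these shares were 29.97%, 2.84% and 10.3%. The share of pairs with 1 library at the floor and the other at 100 counts or more was thus larger for mitotic genes than for all tested genes. All tested genes were not matched to the mitotic genes for level, so a trait of mitotic transcripts and an effect of their level cannot be told apart.

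**Figure D5:**
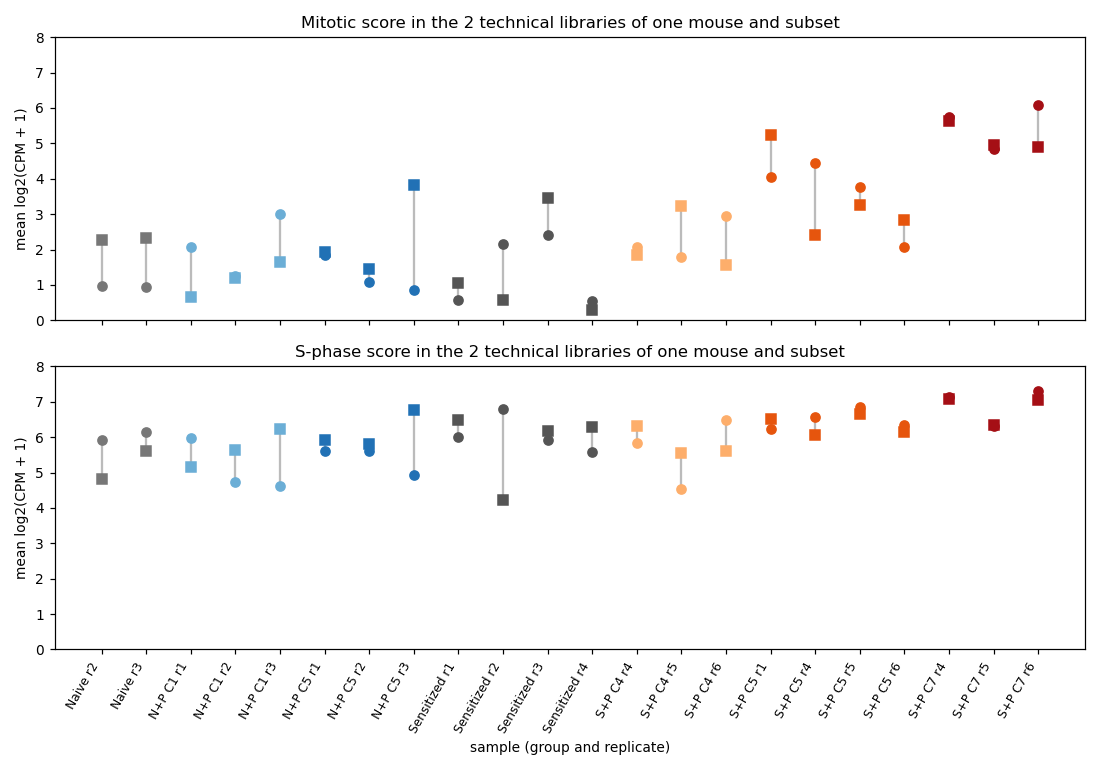
Mitotic score (upper) and S-phase score (lower), as mean log2(CPM + 1) scaled by library total, in the 2 technical libraries (circle A, square B, joined by a grey line) of each of 22 samples. The mitotic score of N+P C5 replicate 3 was 0.86 in one library and 3.81 in the other, while the libraries of S+P C7 replicate 4 nearly coincided.

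Further genes of the same pathways were taken from 6 lists, of which 88 of 89 genes were tested. The lists held 24 origin licensing and replication genes, 7 genes of D-type cyclins, their kinases and Cdc25a, 9 tested CDK inhibitors and antiproliferative genes, 18 pocket protein, E2F and MuvB genes, 26 other mitotic genes, and 4 genes of histone variants and Hmgb2. In the test for any difference edgeR called 3 of the 88, Hmgb2, Cdk6 and H2az1 (1.84% of all genes), 12 had an unadjusted p under 0.05 (20.6% of all genes) and DESeq2 called 6 (2.19% of all genes). In the 11 comparisons and the interaction edgeR called 0 of the 88. There, 1 to 9 genes had an unadjusted p under 0.05, with 3.23% to 15.9% of all genes at that level, and DESeq2 called 2 to 6, with 2.8% to 5.48% of all genes called.

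Hmgb2, a chromatin protein abundant in proliferating cells, had an adjusted p of 0.00407 for any difference. It was at 290.5, 249 and 124 CPM in Naive, 131, 122 and 171 CPM in N+P C1, 229, 148 and 205 CPM in N+P C5 and 220.2, 328, 393 and 177 CPM in Sensitized. It ran from 160.3 through a median of 289 to 418 CPM in S+P C4 and from 199 through a median of 322 to 590.1 CPM in S+P C5. S+P C7 held 403, 1551, 935, 567 and 612 CPM, so each S+P C7 sample was above each Sensitized sample. Without S+P C7 replicate 3 the adjusted p of Hmgb2 was 0.0232, and with the replicate block it was 0.0108.

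Cdk6, a kinase that pairs with D-type cyclins, had an adjusted p of 0.0311. It was at 66.1, 48.5 and 63.7 CPM in Naive, at 45.9, 57.8 and 123 CPM in N+P C1 and at 96.2, 46.7 and 48.02 CPM in N+P C5. Sensitized held 127, 201, 135 and 163 CPM, each above every sample of those 3 ungrafted groups. S+P C4 ran from 116 through a median of 180.2 to 313 CPM, S+P C5 from 80.6 through a median of 107 to 270.3 CPM and S+P C7 from 136 through a median of 244 to 502 CPM. Without S+P C7 replicate 3 the adjusted p of Cdk6 was 0.0600, and with the replicate block it was 0.0806.

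H2az1, which encodes the histone variant H2A.Z, had an adjusted p of 0.0652. Its mean was 333 ± 90.6 CPM in Naive, 317 ± 30.5 CPM in N+P C1 and 467 ± 21.7 CPM in N+P C5 (SD, n = 3 each). It was 608 ± 247 CPM in Sensitized, 643 ± 238 CPM in S+P C4, 798 ± 325 CPM in S+P C5 and 889.5 ± 215 CPM in S+P C7. The call of H2az1 was lost without any 1 Naive, N+P C1 or N+P C5 sample or S+P C7 replicate 4 or 6, with adjusted p of 0.103 to 0.111, and without a filter on low counts (0.234). Without a Naive, N+P C1 or N+P C5 sample 22820 to 23525 genes passed the filter in place of 19657. The loss of the sample and the larger number of tests cannot be told apart there.

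Among the other mitotic genes 25 of 26 were higher in S+P C7 than in Sensitized, with a median log2 fold change of 2.603, and 24 of 26 were higher than in S+P C5, with a median of 0.67. The origin licensing and replication genes had medians of 0.74 and 0.32 in these comparisons. The 3 genes of each list with the most counts, not scaled for length, are given by their mean over the 30 samples. They were Pttg1, Smc2 and Cenpa in the mitotic list, with 123, 66.9 and 59.7 CPM, and Rpa2, Dut and Pola1 in the replication list, with 117, 64.0 and 50.3 CPM. Of the inhibitors and antiproliferative genes Btg1 averaged 1590 CPM, Btg2 319 CPM and Cdkn2d 108 CPM, and 4 of 9 were higher in S+P C7 than in Sensitized with a median of 0. Among D-type cyclins and kinases Ccnd2 averaged 581, Ccnd3 302 and Cdk6 155 CPM, and 3 of 7 were higher in S+P C7 than in Sensitized. In the pocket protein, E2F and MuvB list Rbbp4, Rbl2 and Lin37 averaged 165, 97.2 and 55.1 CPM, and 14 of 18 were higher in S+P C7 with a median of 0.75. Of the 6 lists, the other mitotic genes had the largest median in S+P C7 vs. Sensitized.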

How the data were processed

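RNA-Seq libraries were made with SmartSeq2 and Nextera XT from 200 sorted cells each and sequenced in 1 run. The paper sorted the cells over more than 1 independent experiment and lists several sorting instruments. The sample titles give neither, so an effect of the sort could not be separated from the spread between samples. The authors trimmed reads with cutadapt 3.4, aligned them with STAR 2.6.1b to GRCm39, kept uniquely mapped reads and counted them per gene with featureCounts 2.0.1. The deposited values are raw counts per gene in 56 libraries, without normalization. The strand option and annotation release are not given in the sources used here. Library totals were 6636532 to 32625243 counts. The reads were amplified and carry no molecular identifiers, so a floor of 3 counts covers counting error only.

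Technical libraries were summed per mouse and subset, which left 30 samples after the repeated libraries were handled. Replicates are numbered in the labels, and p-values measure the spread between these samples. Counts were tested with edgeR 4.0.16 (R 4.3.3; filterByExpr with a minimum count of 10, TMM, robust quasi-likelihood fit of the 7 groups, two-sided, Benjamini-Hochberg over 19657 genes). The thresholds were an adjusted p of 0.1 and an absolute log2 fold change of 0.9, the latter not used for the any-difference and interaction tests. CPM are counts divided by the TMM-scaled library size, and for single technical libraries by the library total, and scores are means of log2(CPM + 1). Exon lengths and gene positions came from GENCODE M39 (GRCm39). Alternatives were DESeq2 1.42.0, RLE or library size scaling, no filter or a mean of 10 CPM, only the groups compared, a replicate block, an FDR of 0.05, no minimum fold change, all 56 columns, leaving out the samples under 9000 genes or each sample in turn, a pseudocount of 0.1, log2 of summed CPM and all 18 replication and G1/S genes. Subsets of N+P or S+P mice with the same number were taken as 1 mouse, since each cell suspension came from an individual mouse. Correlations of their deviations were 0.02 to 0.07 between N+P subsets and 0.04 to 0.31 between S+P subsets.

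The fit was tested on simulated counts, where it recovered a small part of the changed genes, so a count of 0 called members does not show that members did not differ. The members, lists and the handling of libraries were chosen with earlier results of these data known. Named genes were Mki67, the 5 mitotic and 5 replication and G1/S genes highest per kilobase, every called member, and, from the other lists, called genes and the 3 most abundant. Others were named from the tests or their lack of overlap after their values were seen. Python 3.11.15, pandas 2.3.3 and matplotlib 3.10.9 were used.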

Additional observations from a re-analysis of the deposited data

Results flagged for a closer look

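Flags were sought in the 2 scores and in 10 named members, each on the log2(CPM + 1) scale, in the 4 groups with 4 to 6 samples, which made 48 tests at a level where chance flags about 1 in 20. A sample was flagged when its gap to the nearest other sample took up an unusually large part of the group's range (Dixon's test at 95%), and 12 were.

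8 of the 12 concern the samples with under 9000 genes detected. In S+P C7 replicate 3 the S-phase score was 3.84 against 6.33 to 7.10 in the other S+P C7 samples, Mcm3 and Mcm6 were at 0 against 6.10 to 7.49 and 7.80 to 8.58, and Mcm4 was at 5.37 against 6.68 to 7.10. In S+P C4 replicate 3 Mcm3 was at 0 against 4.69 to 6.08 in the other S+P C4 samples, Mcm4 at 0.58 against 4.94 to 6.57 and Pcna at 5.42 against 6.99 to 7.41. In S+P C4 replicate 2 Mcm6 was at 0 against 7.05 to 7.41.

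The other flags were in samples with more genes detected. Birc5 was at 0 and Mcm7 at 1.13 in S+P C5 replicate 2, against 4.18 to 6.10 and 5.14 to 6.30 in the others. Ccnb2 was at 2.27 in Sensitized replicate 3, against 0 to 0.07 in the other Sensitized samples. Cdc20 was at 4.23 in S+P C7 replicate 1/2, against 5.05 to 5.26 in the others.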

How the results depend on the processing

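Under the alternatives, 265 of 283 counts of called members stayed at their reported value, and all 196 mitotic and 207 S-phase score differences moved by less than 1 SD. The exceptions concern the any-difference test, where 1 member was called. It called 7 members without a filter on low counts, where 42.2% of all genes were called, 4 without the samples under 9000 genes (Mcm3, Mcm6, Mki67 and Tyms, not Top2a; 3.94% of all genes), 2 by DESeq2, and 0 at an FDR of 0.05, with all 56 libraries or with the replicate block. Leaving out 1 sample gave 0 to 3, with 0 without S+P C7 replicate 3, 4 or 6, 2 without S+P C4 replicate 2 or S+P C7 replicate 1/2, and 3 without Sensitized replicate 3. In place of 0, DESeq2 called 2 members in N+P C1 vs. Naive and in N+P C5 vs. N+P C1, 1 in S+P C4 and in S+P C5 vs. Sensitized, and 3 in S+P C7 vs. S+P C4 and vs. Sensitized. The cause of these shifts was not tested. The replicate block gave 0 called members in every other comparison and so changed no other call. It paired subsets of the same mice within N+P and within S+P, and elsewhere, the any-difference test included, it also joined unrelated mice that share a number.

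Without the samples under 9000 genes the mitotic score difference of S+P C5 vs. S+P C4 moved from 0.65 to -0.14 and the S-phase score difference of S+P C4 vs. Sensitized from -1.29 to -0.35. Scaling by library size alone moved the median of all genes by -0.18 in S+P C4 vs. Sensitized to 0.24 in S+P C5 vs. S+P C4. Transcripts at 3 counts or fewer in single libraries of 200 cells limit what can be said of the mitotic genes.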
